A study of Mus musculus with 6 samples.

Results

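The AP-1 and immediate early genes described here are 10 genes, Fos, Fosb, Fosl1, Fosl2, Jun, Junb, Jund, Egr1, Atf3 and Ier2. They were taken by their symbols from the annotation of the sequenced reads, which named 14970 genes in all, and each of the 10 was found. All 10 passed the filter on low counts that 11177 genes passed.

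AP-1 is a dimer of leucine zipper proteins, usually one of the Fos type with one of the Jun type, that binds DNA and regulates transcription. The genes of its subunits, with Egr1, Atf3 and Ier2, are immediate early genes: growth factors and stress induce many of them within minutes through kinases of the MAPK type and factors such as SRF that are already in the cell, and their transcripts are short-lived. In mammary carcinoma AP-1 is known for its part in growth and in the expression of secreted proteases.

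The series compares CD24- with CD24+ Mvt1 cells, a mouse mammary carcinoma line of the FVB/N strain that the labels call mammary epithelial cancer cells. The line had been separated by flow cytometry on CD24, a surface glycoprotein, and RNA was then taken from adherent plates in DMEM with 10% fetal bovine serum, 3 plates of each population, with no other treatment named. The line is known to come from a mammary tumour of a mouse with Myc and Vegfa transgenes under the MMTV promoter. Both populations descend from it, neither is described as more than 1 sort, and the counts cannot show how independent the plates were. The p-values therefore judge the difference between populations against the spread between plates, which may be technical, and may hold no variation between sorts. A change tied to CD24 cannot be told apart from any other change between the sorted populations. Libraries held 6498184 to 19123897 gene reads, with CD24+ replicate 1 the shallowest.

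Levels are counts per 1000000 (CPM) of the gene reads of a library after TMM scaling. Cd24a, the gene of the sorted marker, had 10.2 CPM in CD24- and 77.1 CPM in CD24+ cells, a log2 fold change of 2.92. Among 8 epithelial markers Krt8 and Krt18 were abundant, at 1227 and 731 CPM in CD24- and 596 and 213 CPM in CD24+ cells, while the means of Cdh1, Epcam, Krt5 and Krt14 did not exceed 0.101 CPM in either population. The summed level of this list was 1844 to 2037 CPM in CD24- and 758 to 902 CPM in CD24+ libraries. Of the macrophage markers Ptprc and Csf1r were at most 0.0752 CPM on average. Itgam had 3.78, 4.45 and 3.26 CPM in CD24- replicates 1 to 3 and 1 read in all in the CD24+ libraries (edgeR adjusted p = 3.5005e-06). Cd68 fell from 64.4 to 8.15 CPM. Both changed in the direction of Atf3, in which 22.3% of all tested genes were called. The other tested marker, Cd14, had 31.7 CPM in CD24- and 27.9 CPM in CD24+ cells and was not called (edgeR adjusted p = 0.206). The macrophage list summed to 77.1 to 113 CPM in CD24- and 32.5 to 43.1 CPM in CD24+ libraries, with 2 of its 3 tested genes lower. The endothelial list summed to 2.25 to 4.07 CPM in CD24- and 0.681 to 1.89 CPM in CD24+ libraries. All 5 fibroblast markers that were tested were higher in CD24+ cells, and that list summed to 9.11 to 15.99 CPM in CD24- and 64.8 to 97.8 CPM in CD24+ libraries. Most of that sum in CD24+ cells was Pdgfrb, which rose from 4.80 to 66.6 CPM, while Col1a1, Col1a2 and Dcn had 3.19, 1.58 and 2.05 CPM there. The part of these markers in the differences reported below was not tested.

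The promoters of 7 members were in the RefSeq table for GRCm38.p6, which lists none for Egr1, Fosl1 and Ier2. Those of Fos and Fosb, which took the same order of libraries within each population, and of Atf3, which changed most, are printed below as the 250 bases before the start that this table gives. That start can differ from that of the GENCODE transcript used for levels, as for Jund below. The Atf3 window lies inside the GENCODE span of the gene given below, but this span covers all transcripts of Atf3. The transcript used for levels has 1984 bases and introns of 11061 bases, together shorter than the span. The place of the window inside the span thus does not show another start. Capitals mark the motifs found on either strand.
Fos, GRCm38.p6 chr12:85473640-85473889, plus strand: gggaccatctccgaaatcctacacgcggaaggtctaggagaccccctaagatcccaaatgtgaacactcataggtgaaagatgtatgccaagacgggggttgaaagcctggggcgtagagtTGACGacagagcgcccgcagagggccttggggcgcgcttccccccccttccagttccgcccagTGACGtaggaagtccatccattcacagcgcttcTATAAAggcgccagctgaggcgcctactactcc
Fosb, GRCm38.p6 chr7:19310046-19310295, minus strand: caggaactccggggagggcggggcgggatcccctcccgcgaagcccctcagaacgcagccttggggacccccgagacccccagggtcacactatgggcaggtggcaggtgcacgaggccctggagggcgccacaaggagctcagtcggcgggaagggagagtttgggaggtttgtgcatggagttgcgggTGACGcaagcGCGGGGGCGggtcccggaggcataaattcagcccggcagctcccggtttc
Atf3, GRCm38.p6 chr1:191183334-191183583, minus strand: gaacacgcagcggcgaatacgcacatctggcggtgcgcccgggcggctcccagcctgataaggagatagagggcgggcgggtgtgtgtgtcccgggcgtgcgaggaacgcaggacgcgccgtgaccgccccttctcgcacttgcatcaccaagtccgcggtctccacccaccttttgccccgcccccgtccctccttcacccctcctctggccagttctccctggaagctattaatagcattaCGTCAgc

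The motifs searched were TGACG, the half-site of the cAMP response element, the whole element TGACGTCA, its form TGACNTCA, the AP-1 element TGANTCA, the EGR site GCGNGGGCG, the TATA box TATAAA and the CArG box, which SRF binds. A whole element counts under TGACNTCA and under TGACG too. TGACG began 129 and 66 bases before the start of Fos, which also held TATAAA 33 bases before it. In Fosb TGACG began 60 bases before the start and GCGGGGGCG 50 bases before it. In Atf3 the half-site lay on the other strand, as CGTCA, 7 bases before the start. Of the promoters not printed, that of Junb held TGACG, that of Fosl2 GCGGGGGCG and that of Jun TGACATCA. The window listed for Jund, from 70697489 to 70697738 on chromosome 8, held none of these letters. It lies well before the GENCODE start of Jund at 70698949, and the bases next to that start were not searched. Over 32851 promoters of the same length, 17.8% held TGACG, 1.55% TGACGTCA, 7.49% TGACNTCA, 6.75% TGANTCA, 1.47% a CArG box, 4.70% GCGNGGGCG and 12.4% TATAAA. These matches describe letters in the window and do not show binding.

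In CD24+ cells 4 of the 10 members were lower than in CD24- cells at an adjusted p below 0.05 (edgeR quasi-likelihood F test, Benjamini-Hochberg adjustment over all genes tested), and 0 were higher. None was higher at an unadjusted p below 0.05 or with DESeq2 either, 0 of 10 each time. These counts rest on the same libraries, and the share of all genes higher under them is not given here. In bulk RNA a smaller share of expressing cells and less RNA per cell cannot be told apart. Atf3 fell most, 5.16-fold, and Fosl1, Ier2 and Egr1 fell by less. Fos, Fosb, Fosl2, Jun, Junb and Jund did not pass the test. The background in this comparison was high, since 46.1% of all genes tested were called, 23.9% higher and 22.3% lower. A call in 4 of 10 members is thus near the share of all genes, and all 4 were lower. The groups did not overlap for 4 members, Atf3, Fosl1, Ier2 and Junb, all lower in CD24+ cells, where 57.3% of all genes did not overlap, 29.7% higher and 27.6% lower. The median log2 fold change of the members was -0.28, against 0.017 over all genes.

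**Figure D1:**
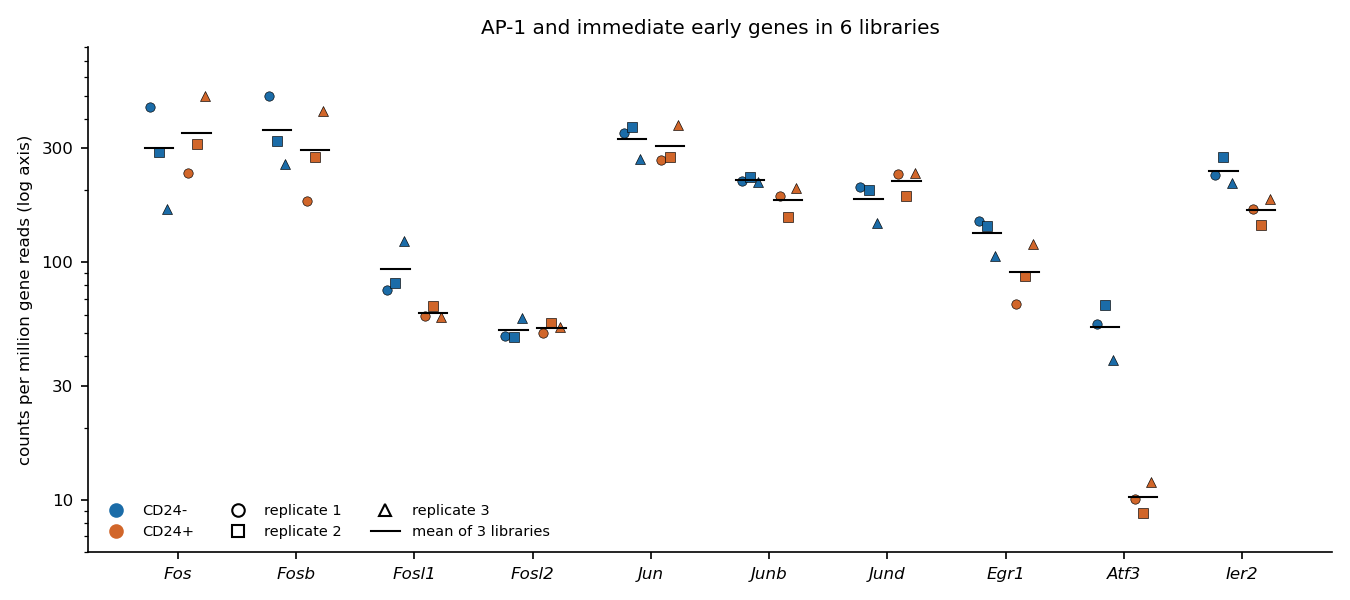
Level of each member in each of the 6 libraries, in counts per 1000000 (CPM) of gene reads on a log axis. Colour marks the population, the marker shape the replicate number and the bar the mean of 3 libraries. The CD24+ libraries of Atf3 lie between 8.75 and 11.9 CPM, all below the CD24- libraries, while the libraries of Fos and Fosb spread widely within each population.

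Atf3, a leucine zipper factor induced by many stresses that often represses its targets, had 54.8, 65.6 and 38.5 CPM in CD24- replicates 1, 2 and 3 and 10.1, 8.75 and 11.9 CPM in CD24+ replicates 1, 2 and 3. The lowest CD24- library was thus above the highest CD24+ library. CD24- plates averaged 53.0 ± 13.7 CPM and CD24+ plates 10.2 ± 1.58 CPM (SD, n = 3 each), 5.16-fold lower in CD24+ cells. The log2 fold change was -2.37 (standard error 0.20, 95% interval -2.81 to -1.93, edgeR adjusted p = 6.2117e-06). The gene spans GRCm38 chromosome 1 from 191170296 to 191218039 on the minus strand, and its 2004 reads over the 6 libraries were the fewest of the members, from 64 in CD24+ replicate 1 to 694 in CD24- replicate 2.

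Fosl1 encodes FRA-1, a Fos-type subunit that lacks a transactivation domain of the kind found in Fos and is abundant in invasive breast cancer lines. It had 75.8, 81.3 and 122.9 CPM in CD24- replicates 1 to 3 and 59.5, 65.0 and 58.4 CPM in CD24+ replicates 1 to 3. The populations did not overlap, and CD24- replicate 3 stood above the other libraries. The log2 fold change was -0.61 (standard error 0.16, edgeR adjusted p = 0.0109), which is 1.53-fold lower in CD24+ cells, and it was -0.36 without CD24- replicate 3 (edgeR adjusted p = 0.0434). Fosl1 spans GRCm38 chromosome 19 from 5447547 to 5455946. Because the library carries no strand, the assignment of reads at the end of Fosl1 next to its neighbour Ccdc85b is uncertain.

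Ier2, a small nuclear protein of growth factor responses encoded by a single exon, had 231, 276 and 214 CPM in CD24- replicates 1 to 3 and 166, 143 and 185 CPM in CD24+ replicates 1 to 3. Every CD24+ library was below every CD24- library. The log2 fold change was -0.55 (standard error 0.12, edgeR adjusted p = 0.0039). The call was lost with each distinct sequence counted once (-0.37, edgeR adjusted p = 0.0558). Ier2 spans GRCm38 chromosome 8 from 84661331 to 84662852 on the minus strand.

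Egr1, a zinc finger factor that binds the EGR site, had 148, 141 and 106 CPM in CD24- replicates 1 to 3 and 66.2, 87.5 and 119 CPM in CD24+ replicates 1 to 3. Here the populations overlapped, since CD24+ replicate 3 was above CD24- replicate 3. The log2 fold change of -0.52 (standard error 0.19) passed the test narrowly, with an edgeR adjusted p of 0.0445. The call was lost without CD24- replicate 1, CD24- replicate 2, CD24+ replicate 1 or CD24+ replicate 2, at edgeR adjusted p = 0.134, 0.108, 0.123 and 0.103, and the change was -0.36 without CD24+ replicate 1. Egr1 spans GRCm38 chromosome 18 from 34859823 to 34864984.

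**Figure D2:**
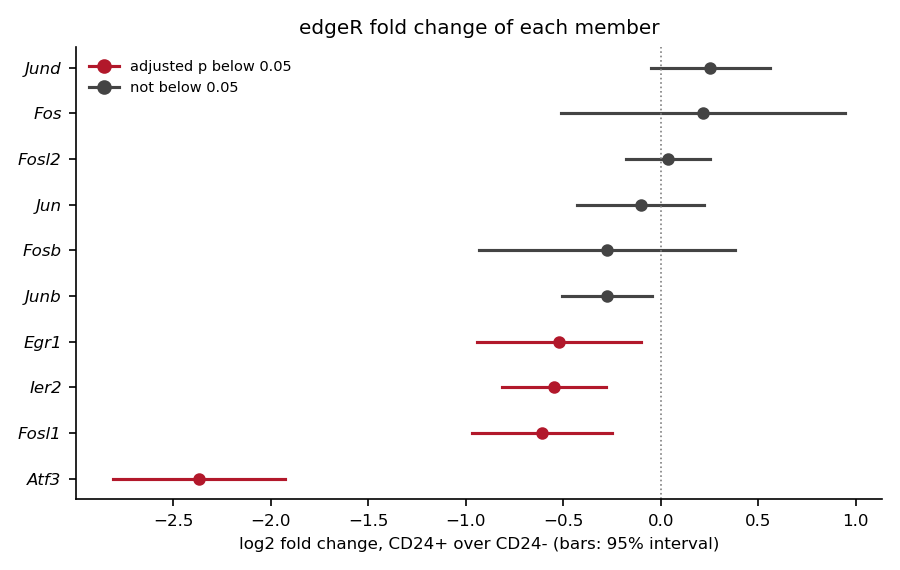
Log2 fold change of each member, CD24+ over CD24-, from edgeR, with its 95% interval as a bar. Red marks the 4 members at an adjusted p below 0.05, all lower in CD24+ cells, and the widest intervals are those of Fos and Fosb.

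Among the Jun-type subunits, Junb, which opposes Jun at several promoters, came nearest to the threshold. It had 218, 227 and 216 CPM in CD24- replicates 1 to 3 and 189, 154 and 204 CPM in CD24+ replicates 1 to 3, so the populations did not overlap. Its log2 fold change was -0.28 (standard error 0.10, edgeR adjusted p = 0.0504), and it passed the same threshold under 7 other ways of processing, with DESeq2 at an adjusted p of 0.0358.

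Jun, the subunit that transactivates most strongly, had 349, 367 and 272 CPM in CD24- replicates 1 to 3 and 268, 277 and 375 CPM in CD24+ replicates 1 to 3. Its libraries overlapped fully, with a log2 fold change of -0.10 (95% interval -0.43 to 0.22, edgeR adjusted p = 0.592). Jund, whose expression is less tied to stimulation than that of Jun and Junb, had 206, 200 and 146 CPM in CD24- replicates 1 to 3 and 235, 188 and 236 CPM in CD24+ replicates 1 to 3. Its log2 fold change was 0.25 (95% interval -0.05 to 0.56, edgeR adjusted p = 0.156). Jun spans GRCm38 chromosome 4 from 95049034 to 95052222, Junb chromosome 8 from 84974484 to 84978718 and Jund chromosome 8 from 70698949 to 70700616, each with a single exon in the transcript used here.

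Fos, the subunit that gives the type its name, had 448, 289 and 166 CPM in CD24- replicates 1 to 3 and 236, 314 and 497 CPM in CD24+ replicates 1 to 3. The lowest library was a CD24- and the highest a CD24+ one, but CD24- replicate 1 was above 2 of the CD24+ libraries. The log2 fold change was 0.22 with a 95% interval of -0.51 to 0.95 (edgeR adjusted p = 0.611). Without CD24- replicate 3 it was -0.07 and without CD24+ replicate 3 it was -0.14. These plates thus do not give Fos a direction between the populations. Fos spans GRCm38 chromosome 12 from 85473890 to 85477273.

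Fosb, the Fos-type subunit whose short form lasts longest in cells, had 499, 321 and 258 CPM in CD24- replicates 1 to 3 and 180, 275 and 431 CPM in CD24+ replicates 1 to 3. Its log2 fold change was -0.28 with a 95% interval of -0.93 to 0.38 (edgeR adjusted p = 0.467), and it was 0.03 without CD24- replicate 1. Fosl2, which encodes FRA-2, had 48.9, 48.3 and 57.9 CPM in CD24- replicates 1 to 3 and 50.2, 55.1 and 53.4 CPM in CD24+ replicates 1 to 3. Its log2 fold change was 0.04 with a 95% interval of -0.18 to 0.25, the narrowest interval of the Fos-type members. Fosb spans GRCm38 chromosome 7 from 19302696 to 19310051 and Fosl2 chromosome 5 from 32135801 to 32157842.

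Fos and Fosb varied more between plates of one population than almost any other gene of at least 20 CPM. The highest library was 2.69 times the lowest for Fos in CD24- and 2.10 times in CD24+ cells, and 1.94 and 2.39 times for Fosb, where the median gene of at least 20 CPM gave 1.14 and 1.16. Among 7690 such genes of all levels above that limit the pooled SD of log2 CPM within a population put Fos at percentile 99.8, Fosb at 99.6, Egr1 at 97.7 and Atf3 at 96.9. Fosl1 stood at percentile 94.7, Jun at 93.0, Jund at 91.6 and Ier2 at 82.7. Fosl2 stood at percentile 47.1 and Junb at 68.5, so the spread was not shared by all members. Fos, Fosb and Egr1 took the same order of libraries within each population, highest in CD24- replicate 1 and in CD24+ replicate 3, and 243 of the 7690 genes (3.16%), these 3 included, had this order. The source of this spread was not tested.

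The 3 genes whose 6 log2 CPM values, centred on their mean, lay nearest to those of Atf3 among 11176 other tested genes were Acp5, an acid phosphatase, Cyth4, an exchange factor of small GTP-binding proteins, and Slc16a10, an amino acid transporter, at Euclidean distances of 0.34, 0.37 and 0.39. Their log2 fold changes were -2.37, -2.50 and -2.62. The likeness is over 6 libraries in 2 populations and was chosen for, so it has no test.

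Read density along the transcripts allows levels to be compared between members. In reads per 1000000 gene reads and per kilobase of exon, the mean over the 6 libraries ranked Fos highest, followed by Ier2, Jund, Junb, Jun, Fosb, Fosl1, Egr1, Fosl2 and Atf3. The ranges over libraries were 79.8 to 222 for Fos, 95.0 to 187 for Ier2, 89.3 to 145 for Jund, 86.9 to 130.1 for Junb and 83.2 to 119 for Jun, which all overlapped. They were 29.5 to 88.4 for Fosb, 29.5 to 55.9 for Fosl1, 13.8 to 32.3 for Egr1, 7.20 to 8.51 for Fosl2 and 2.06 to 12.8 for Atf3. Of the 9 neighbouring pairs in this order, the ranges of Egr1 and Fosl2 alone did not overlap. This order pools the populations, and only Jun, Fosb, Fosl1 and Egr1 kept their place in both. Ier2 was the densest member in CD24- cells with a mean of 162 ± 22.4 and Fos in CD24+ cells with 156 ± 60.1 (SD, n = 3 each). Junb was above Jund in CD24- cells (126 against 114) and below it in CD24+ cells (102 against 134). Atf3 was above Fosl2 in CD24- cells (9.75 against 7.73) and below it in CD24+ cells (2.92 against 7.74).

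Within the Jun type, Jund held a larger and Junb a smaller share of the read density in every CD24+ library than in any CD24- library. Jund made up 29.95% to 35.0% in CD24- and 38.2% to 42.8% in CD24+ libraries, and Junb 34.3% to 41.1% and 29.98% to 31.9%, while Jun overlapped at 28.99% to 31.7% and 25.3% to 31.4%. Within the Fos type, Fosb made up 23.8% to 25.6% in CD24- and 17.0% to 22.2% in CD24+ libraries, whereas the shares of Fos, Fosl1 and Fosl2 overlapped. Each share that did not overlap had an exact two-sided permutation p of 0.1, the smallest that 3 libraries against 3 allow, and 0.175 after adjustment over 14 such comparisons. The design therefore cannot reach an exact p of 0.05 for these shares. Shares of one type sum to 100%, so a rise of one member lowers the others.

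Exact matching of the reads to GENCODE M21 coding transcripts separated reads in exons from reads in introns. Atf3 was unlike the other members in this respect, since most of its reads in CD24- cells matched no coding transcript. The share was 70.1%, 65.4% and 66.1% in CD24- replicates 1 to 3 and 32.8%, 57.4% and 54.2% in CD24+ replicates 1 to 3, lower in every CD24+ library. This share moved in the same direction across genes: of 7653 genes with introns and at least 50 reads in each library, 37.5% had shares that did not overlap between populations, 36.2% lower and 1.27% higher in CD24+ cells. The median share of these genes was 5.24% to 6.72% in CD24- and 3.16% to 5.20% in CD24+ libraries, lowest in CD24+ replicate 1. The part of this general shift in the share of Atf3 was not tested. The exact (Clopper-Pearson) 95% interval was 21.6% to 45.7% in CD24+ replicate 1, where the share rested on 64 reads, and such intervals cover counting error only. Placed by the deposited coordinates, 97.03% of the Atf3 reads that matched no coding transcript lay inside an intron and none inside an exon.

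Both kinds of Atf3 reads were lower in CD24+ cells. Reads that matched a coding transcript gave 16.4, 22.7 and 13.1 CPM in CD24- replicates 1 to 3 and 6.76, 3.72 and 5.45 CPM in CD24+ replicates 1 to 3, a log2 fold change of -1.78 (edgeR adjusted p = 0.000246). Reads that matched none gave 38.5, 43.0 and 25.5 CPM against 3.31, 5.03 and 6.45 CPM, a log2 fold change of -2.77 (edgeR adjusted p = 7.1606e-06). Neither kind overlapped between populations, and the exonic reads alone were 3.43-fold lower in CD24+ cells. A further 524 reads within the span of the Atf3 reads were annotated to repeats or small RNAs and counted for no gene. They ran from 11.5 to 16.8 reads per 1000000 gene reads in CD24- and from 0.923 to 2.88 in CD24+ libraries, so no CD24+ library reached a CD24- library there either. Atf3 was not alone in this, as Fosb had 1618 such reads, with overlapping populations, and Fosl1 944. Those of Fosl1 ran from 14.9 to 27.3 in CD24- and from 7.63 to 10.4 in CD24+ libraries.

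**Figure D3:**
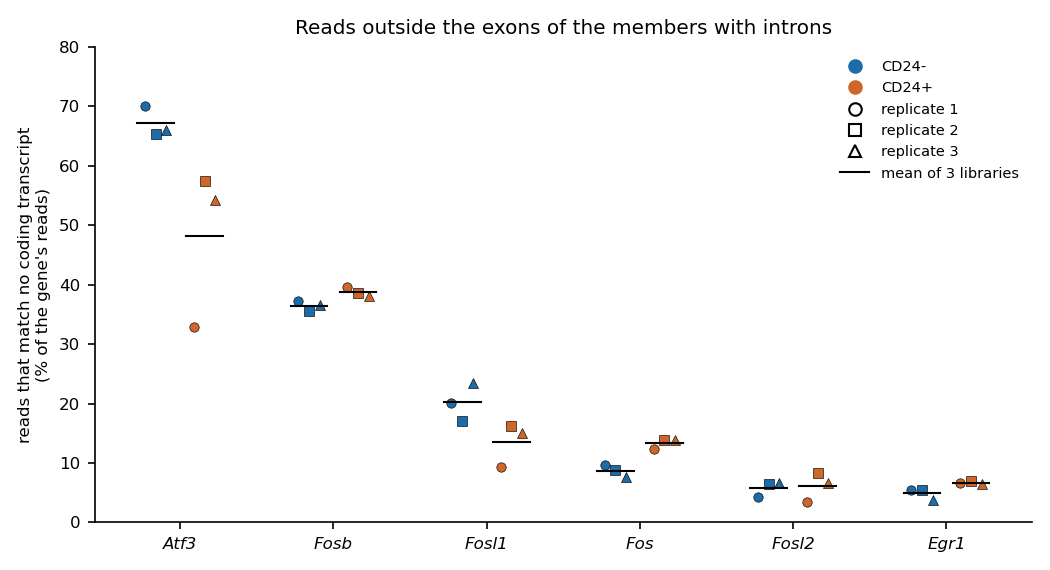
Share of the reads of each member with introns that match no coding transcript, in percent of that gene's reads, for each library. Bars are means of 3 libraries. Atf3 and Fosl1 have lower shares in every CD24+ library than in any CD24- library, and Fos, Fosb and Egr1 have higher ones.

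Of the other members with introns, Fosb had 35.6% to 37.2% of its reads outside coding transcripts in CD24- and 38.1% to 39.7% in CD24+ libraries. Fos had 7.71% to 9.67% and 12.3% to 13.8%, and Egr1 3.82% to 5.44% and 6.53% to 6.90%. Fosl1 went the other way, with 17.1% to 23.5% in CD24- and 9.26% to 16.1% in CD24+ libraries. Shares for 5 of the 6 members with introns therefore did not overlap between populations, 3 higher and 2 lower in CD24+ cells, where the same was found for 37.5% of all such genes. The share over all genes took a match to a coding transcript of any gene as inside. By that rule Fosl1 had 15.25% to 20.9% in CD24- and 7.67% to 14.1% in CD24+ libraries, and the members with introns kept their directions. Atf3 and Fosl1 thus moved with the 36.2% that were lower, and Fos, Fosb and Egr1 with the 1.27% that were higher. These are point values. The exact 95% intervals of single libraries overlapped between populations for Atf3, Fosl1, Fosb and Egr1, but not for Fos. For Egr1 the interval was 4.27% to 6.70% in CD24- replicate 1 and 4.46% to 9.47% in CD24+ replicate 1. Fosl2 overlapped at 4.29% to 6.60% and 3.45% to 8.30%. The exact permutation p was 0.1 for each of the 5, or 0.175 adjusted over the 14 comparisons. Fos reads that matched no coding transcript gave 43.4, 25.3 and 12.8 CPM in CD24- and 29.1, 43.5 and 68.6 CPM in CD24+ replicates 1 to 3, a log2 fold change of 0.82 that did not pass the test (edgeR adjusted p = 0.0996). For Fosl1 the changes were -0.49 with exonic reads (edgeR adjusted p = 0.0198) and -1.16 with the other reads (edgeR adjusted p = 0.00818). For Egr1 they were -0.55 with exonic reads (edgeR adjusted p = 0.0356) and -0.07 with the other reads (edgeR adjusted p = 0.848), which were 476 in all. The difference between the kinds of reads was tested through these shares alone.

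Fosb is spliced into a full-length and a short form, and the short form, known as delta FosB, lacks the part of the protein that transactivates most strongly. The short transcript leaves out 140 bases of an exon, from 19305007 to 19305146 on the minus strand of chromosome 7 of GRCm38. These bases are shown in capitals within the full-length form, and the stop codon that the join creates is shown in capitals in the short form.
Fosb full-length form: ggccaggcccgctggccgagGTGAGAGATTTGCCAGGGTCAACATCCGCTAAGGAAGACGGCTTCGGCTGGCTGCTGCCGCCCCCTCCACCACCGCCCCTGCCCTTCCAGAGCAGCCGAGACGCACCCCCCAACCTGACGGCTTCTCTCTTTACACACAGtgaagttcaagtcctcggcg
Fosb short form: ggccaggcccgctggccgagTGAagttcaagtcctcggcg

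The full-length form has 338 codons before its stop and the short form 237. Reads across the join of the short form were not kept by the exact match to the genome, so its level was read only from the depth over the 140 bases. In CD24- replicates 1 to 3 the stretch held 80, 60 and 32 reads, with 87, 70 and 39 in the 140 bases before it and 116, 86 and 55 in the 140 bases after it. In CD24+ replicates 1 to 3 it held 20, 71 and 132 reads, with 14, 90 and 136 before and 37, 111 and 190 after. The stretch was covered in every library. The ratio of the stretch to the mean of its flanks was 0.746 ± 0.057 in CD24- and 0.767 ± 0.054 in CD24+ cells (SD, n = 3 each), and the populations overlapped (exact permutation p = 0.6). A difference in the use of the short form was not detectable at this depth, and an unequal depth along a transcript by itself gives no share of a form.

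**Figure D4:**
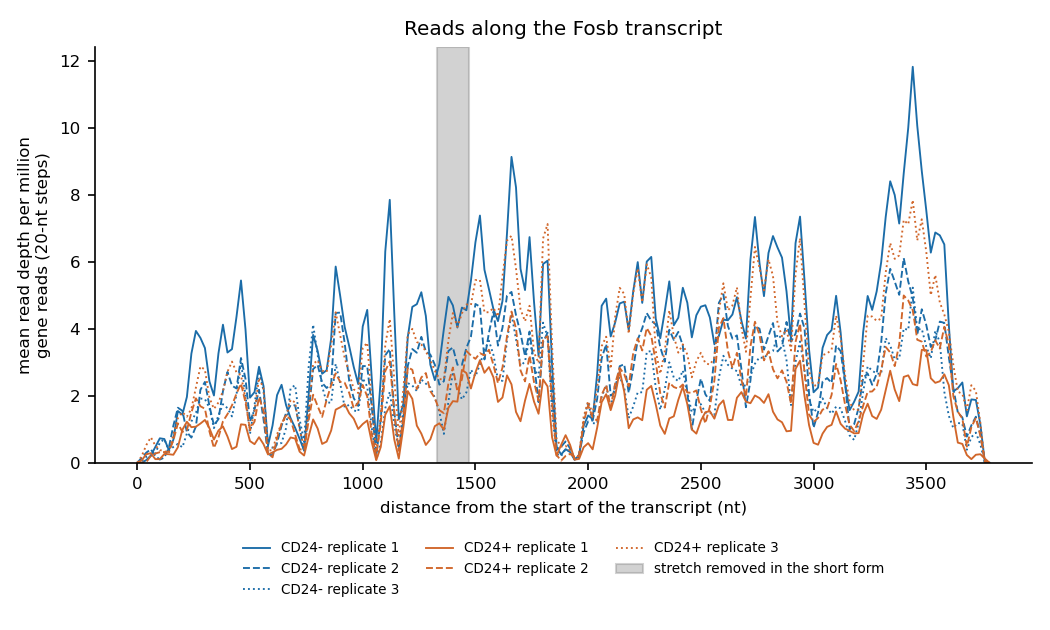
Mean read depth along the full-length Fosb transcript in steps of 20 nt, per 1000000 gene reads, for each library. Colour marks the population and the line style the replicate, and the grey band is the stretch of 140 bases absent from the short form. All 6 libraries cover the band.

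Genes that act with these members were examined in lists written from general knowledge, in which Jdp2 and Maff stand in 2 lists each. Their counts are to be read against the 46.1% of all genes that were called and the median log2 fold change of 0.017 over all genes. Of 14 tested partners with a leucine zipper, 6 were higher and 2 lower in CD24+ cells, with a median log2 fold change of 0.19. Maf, a partner of Fos and Jun, rose from 2.18 to 12.7 CPM (log2 fold change 2.54, edgeR adjusted p = 1.1302e-05), and Atf4, the factor of the integrated stress response, from 218 to 680 CPM (1.64, edgeR adjusted p = 2.0004e-05). With each distinct sequence counted once, Atf4 was not called (0.52, edgeR adjusted p = 0.108). Mafk and Bach1, which repress genes together at Maf sites, fell by 0.64 and 0.21 on the log2 scale. Bach1 lost its call under 7 of 13 other ways of processing (adjusted p up to 0.275), and with a library left out it kept it only where that was CD24+ replicate 1 (edgeR adjusted p up to 0.123 otherwise). The 13 include the fits on exonic or other reads of the members alone, which left the counts of Bach1 and all other genes unchanged. Jdp2, a leucine zipper repressor that pairs with Jun, rose from 40.3 to 108 CPM (log2 fold change 1.42, edgeR adjusted p = 0.000138), in the opposite direction to Atf3, which it resembles in sequence.

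Among 31 tested immediate early genes outside the 10 members, 9 were higher and 10 lower in CD24+ cells, so this wider list had no common direction and a median log2 fold change of -0.06. The largest increases were those of Gem, a small GTP-binding protein, from 1.89 to 17.2 CPM (log2 fold change 3.17), and of Klf4, a zinc finger factor, from 15.9 to 64.4 CPM (2.02). The largest decreases were those of Egr3, a relative of Egr1, from 18.4 to 2.91 CPM (-2.61), and of Myc, from 895 to 251 CPM (-1.83). Myc reads were not separated into those of the gene and those of the transgene.

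Upstream of the members, 4 of 19 tested kinases and their activators were higher and 4 lower, with a median log2 fold change of -0.05. The MAP kinase Mapk3 and the ribosomal S6 kinase Rps6ka3 rose, with log2 fold changes of 0.51 and 0.49, and the ribosomal S6 kinase Rps6ka1 and the RAF kinase Araf fell, with -0.96 and -0.93. Mapk3 was not called without CD24+ replicate 3 (edgeR adjusted p = 0.0631), with each distinct sequence counted once (0.27) or with median coverage. Of 10 factors that bind the promoters of immediate early genes, 3 were higher and 4 lower, with a median of -0.16 on the same scale. Mef2d and Elk4, an SRF partner, fell by 0.78 and 0.65 on this scale. With median coverage Mef2d was not called, at a change of -0.18 (limma adjusted p = 0.0519). Srf, with overlapping populations, and Atf1 passed the test at 0.34 and 0.30, but both calls were lost with some libraries left out. The call of Srf was lost without CD24- replicate 1, CD24- replicate 2, CD24+ replicate 1 or CD24+ replicate 3 (edgeR adjusted p up to 0.169), and that of Atf1 without CD24- replicate 1, CD24- replicate 2 or CD24+ replicate 1 (edgeR adjusted p up to 0.0935). Each also lost it with each distinct sequence counted once, at edgeR adjusted p = 0.0794 for Srf and 0.228 for Atf1. Of 12 genes that repress AP-1 or EGR proteins or turn them over, 3 were higher and 1 lower, with a median of -0.05. Next to Jdp2, the ubiquitin ligase Itch, which targets Jun proteins, rose (0.68), and Fbxw7, the substrate receptor of another ligase for Jun, fell (-0.71). Fbxw7 was not called with median coverage, where the change was -0.15 (limma adjusted p = 0.0959).

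Of 18 tested genes described as AP-1 targets, 9 were lower and 3 higher in CD24+ cells, with a median log2 fold change of -0.32. The protease gene Mmp3 had 343, 313 and 245 CPM in CD24- replicates 1 to 3 and 35.2, 26.1 and 26.6 CPM in CD24+ replicates 1 to 3, a log2 fold change of -3.38 (edgeR adjusted p = 1.1446e-07). Mt2, a metallothionein, fell from 88.0 to 25.7 CPM (-1.77). Spp1, which encodes osteopontin, rose from 841 to 2939 CPM (1.80), and Ptgs2, the inducible cyclooxygenase, from 145 to 323 CPM (1.16). Spp1 was not called with each distinct sequence counted once (0.51, edgeR adjusted p = 0.078). These genes answer to many other factors, and their relation to the members was not tested.

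Heat shock genes, which respond to proteotoxic stress, gave 3 higher and 3 lower of 9 tested, with a median log2 fold change of -0.05. Hspa1b rose from 72.8 to 222 CPM (log2 fold change 1.61) and Hspa1a from 4.72 to 12.8 CPM (1.43), and since both are near-identical copies their separate counts are uncertain. Hspa8 and Hspd1 passed the test with log2 fold changes of -0.37 and -0.28, but both lost the call in part of the other fits. Hspa8 lost it without CD24- replicate 2, CD24- replicate 3, CD24+ replicate 1 or CD24+ replicate 3 (edgeR adjusted p up to 0.099) and under 2 of 13 other ways of processing (adjusted p up to 0.534). Hspd1 kept it with a library left out only where that was CD24+ replicate 2, with edgeR adjusted p up to 0.126 otherwise, and lost it under 3 of the 13 (adjusted p up to 0.378).

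**Figure D5:**
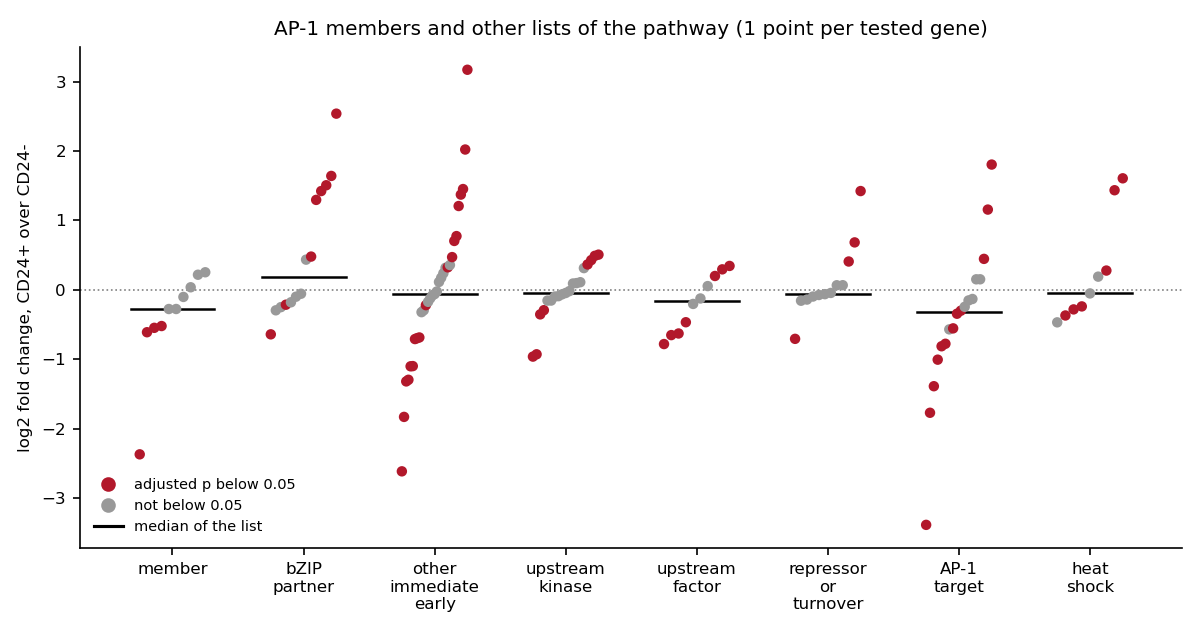
Log2 fold change, CD24+ over CD24-, of every tested gene of each list, with the median as a bar. Red marks an adjusted p below 0.05. No member is called above 0, whereas every other list has called genes on both sides of 0.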

How the data were processed

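Poly(A) RNA libraries without strand were sequenced from 3 CD24- and 3 CD24+ plates. The authors cut each read to 47 nt, merged copies of a sequence, kept exact matches to the genome (mm9, per the labels) and gave every sequence 1 location and 1 annotation, so reads across exon joins or variants are missing. The deposited values are counts per distinct sequence in each library, neither normalized nor pooled. Where a locus had several annotations the authors kept 1 by a hierarchy, and repeat and unannotated reads (7.56% to 10.2% and 16.9% to 20.2% of a library) stayed out of gene totals here. The mapping tool is not given in the sources used here.

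Here counts were summed per symbol and tested with edgeR 4.0.16 in R 4.3.3 (filterByExpr, TMM, quasi-likelihood F test at an adjusted p of 0.05, by Benjamini-Hochberg), with group as the only term. Every member was matched by its symbol. Reads of the members were matched exactly to protein-coding GENCODE M21 transcripts (GRCm38), of which 1 per gene gave the level per kilobase, counted over the read positions that lie within 1 exon. For the share over all genes a read counted as inside where it matched a coding transcript of any gene. Reads outside were placed on mm9 by the deposited coordinates. Shares used exact two-sided permutation tests (scipy 1.17.1). Simulated counts for this comparison covered 11073 genes. On them the test recovered 66% of the genes changed 1.5-fold and 100% of those changed 2-fold, and called 0.147% of the unchanged genes. A far smaller share of genes was changed there than was called in the real counts. These percentages pool genes and were not computed for single members. They do not carry over to Fos and Fosb, which varied more between plates than almost any other gene of at least 20 CPM.

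The members and lists were chosen with earlier results of these data known, so they are a description and not an independent sample. The text names the 10 members, in each other list the 2 called genes with the largest increase and the 2 with the largest decrease at a mean of at least 1 CPM, Cd24a, the fixed cell markers and the 3 genes nearest to Atf3. The alternatives were DESeq2 1.42.0, other scalings and filters, each distinct sequence counted once, reads of a single GENCODE gene, libraries thinned to 6498184 gene reads, the study's median coverage with quantile normalization tested with limma 3.58.1, the replicate number as a block, annotated length and each library left out. Upper-quartile scaling, the fits on exonic or other reads alone and the share over all genes were added after seeing the data. The fits on exonic or other reads replaced the counts of the members only, so they hardly test any other gene. No 2 libraries of 1 population agreed within counting error: the chi-square per degree of freedom was 1.71 between CD24- replicates 1 and 2, against 9.29 to 15.1 in the other pairs. All were counted as separate samples, although the first pair stood far closer than the rest and this check does not show separate cultures.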

Additional observations from a re-analysis of the deposited data

How the results depend on the processing

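Atf3 and Fosl1 kept their direction and their call under all 13 other ways of processing and with each library left out. Atf3 ranged from -2.77 to -0.47 on the log2 scale, the smallest under median coverage, which adds a regularizer of 10 before the log, and from -2.55 to -2.18 with a library left out. With each distinct sequence counted once, 2 members were called instead of 4 and 40 genes of the other lists instead of 63. Ier2 (-0.37, edgeR adjusted p = 0.0558) and Egr1 (-0.36, edgeR adjusted p = 0.112) lost their call there. Over the other ways of processing that were counted for all genes, 3609 to 5526 genes were called, against 5158 in the main fit. Of the other genes named, Atf4 (0.52), Spp1 (0.51), Mapk3 (0.27), Srf and Atf1 also lost their call with distinct sequences. With median coverage Fbxw7 (-0.15), Mef2d (-0.18) and Mapk3 (0.43) lost it. The lost calls of Bach1, Hspa8 and Hspd1 are given with these genes above. Counting distinct sequences compresses the fold changes of abundant genes by construction, but the part of this in the lost calls was not tested. Egr1 also lost its call with upper-quartile scaling (-0.48, adjusted p = 0.0643), with median coverage (-0.33, adjusted p = 0.096) and with reads that match no coding transcript (-0.071). Junb, not called, passed the threshold with DESeq2 (-0.29), RLE scaling (-0.29), library totals (-0.30), median coverage (-0.30), no filter (-0.28), reads of a single GENCODE gene (-0.30) and thinned libraries (-0.29). The cause of these changes was not tested.

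With a library left out, 3 to 5 members were called, and 4089 to 5385 of all genes. The log2 fold changes then ranged from -0.14 to 0.62 for Fos, from -0.66 to 0.034 for Fosb and from -0.011 to 0.13 for Fosl2, which changed sign without being called. They ranged from -0.78 to -0.36 for Egr1 and from -0.38 to -0.17 for Junb, which was called only without CD24+ replicate 3.

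The replicate numbers were not shown to pair the samples: deviations from the population means correlated at 0.013, -0.25 and -0.31 for numbers 1, 2 and 3. With the replicate number as a block, 4 members were called as before, and 4519 genes instead of 5158. No other scaling moved the median of all genes by more than 0.1 on the log2 scale. Depth limits Atf3 most, with 446 reads over the 3 CD24+ libraries.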
